A study of Caenorhabditis elegans with 6 samples.

Results

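The cytochrome P450 genes of the nematode Caenorhabditis elegans were described in whole worms with and without exposure to terahertz radiation. Members were all genes whose name in the deposited table has the form cyp, a family number, a subfamily letter and a gene number, such as cyp-35A2. The table of 46950 genes holds 74 of them, in 15 families and 25 subfamilies, and all 74 are annotated as protein-coding. Of these, 41 reached 1 FPKM in 3 or more libraries and entered the test, while 33 did not. FPKM is the number of counted fragments divided by gene length and scaled to the number counted in the library, so levels can be compared between genes.

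P450 enzymes carry a heme group and insert an oxygen atom into small lipophilic molecules, using electrons passed on by NADPH-cytochrome P450 reductase, which is encoded by emb-8 in worms. Worm P450s oxidise drugs and other foreign compounds, mostly in the intestine, and also act on fatty acids, sterols and eggshell lipids. Many of their genes lie in arrays of related copies, and several are switched on by foreign compounds. The sterol-oxidising P450 daf-9, needed to make the hormone dafachronic acid, carries another kind of name and was not a member. It stayed between 0.0743 and 0.367 FPKM in the 6 libraries.

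There were 3 libraries of control worms and 3 of worms treated with terahertz (THz) radiation, made from polyadenylated RNA of the whole body. The series title gives a high-power source at 0.26 THz. The labels state no genotype, stage, age, power, length of exposure or handling of the controls. Nor do they say whether replicates were grown separately, so the p-values rest on a spread between libraries that may be technical.

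Depth, recovered from the values, was 19079440 to 21977418 counted reads per library. The control libraries differed more among themselves (Pearson r of log2(FPKM + 1) from 0.946 to 0.984) than the THz libraries did (0.989 to 0.992), and Control 2 and Control 3 stood furthest apart. A list of 12 moulting genes of the epidermis, 11 of them kept, summed to 49.9 FPKM in Control 2 and 244 FPKM in Control 3, against 163 FPKM in Control 1 and 91.2 to 128 FPKM in the THz libraries. Of the markers listed for other cells, all 7 of neurons, all 5 of pharynx and all 10 of oocytes and early embryos were kept. Of 10 sperm markers 6 were kept, and the sperm gene ssp-9 was at 0 in all 6 libraries. The 10 intestine markers measured, all kept, summed to 1847 to 2643 FPKM in the control and 1801 to 2514 FPKM in the THz libraries. In whole animals, fewer cells of a type and less RNA per cell cannot be told apart. Several differences that moved with Control 2 or Control 3 are given with and without them.

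Most P450 transcripts were low. The cyp-31A genes were the highest, at a mean of 52.3 to 79.6 FPKM over the 6 libraries, and supplied 43.2% to 50.6% of the summed P450 level in a library. The mitochondrial-type gene cyp-44A1 followed at 26.4 FPKM, then cyp-35A2 at 18.7, cyp-37A1 at 17.0 and cyp-34A9 at 13.1 FPKM. In all, 10 members had a mean of at least 10 FPKM and 16 of at least 5 FPKM. The median of the 41 kept members was 4.13 FPKM, below the median of 15.1 FPKM over all 12174 genes kept.

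**Figure D1:**
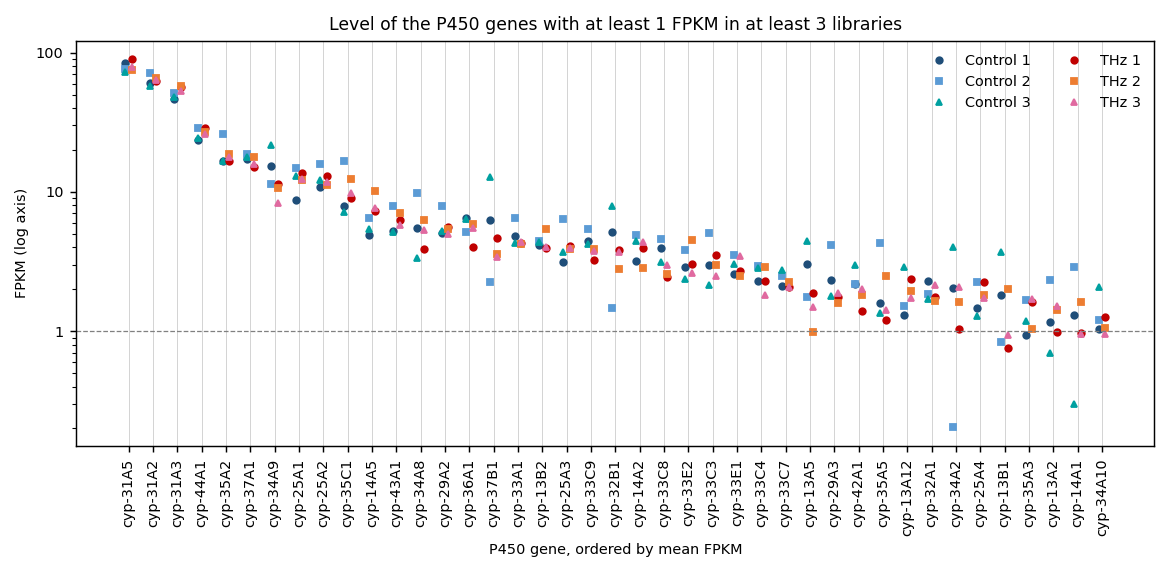
FPKM on a log axis of the 41 P450 genes kept for the test, ordered by their mean; each point is 1 of the 3 control or 3 THz libraries, and the dashed line marks 1 FPKM. The 3 cyp-31A genes stand above 40 FPKM in every library, and the control points of cyp-37B1, cyp-32B1 and cyp-34A2 spread widely.

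Members sit on all 6 nuclear chromosomes, 41 of them on chromosome V. With a gap of at most 10 kb counted as 1 array, 44 members fell into 12 arrays and 30 stood alone. Of the array members 45.5% were kept, against 70.0% of the lone genes. The largest array (chromosome V, 3936326 to 3973001, build WBcel235) holds 10 P450 genes of the cyp-35A, cyp-35B and cyp-34A subfamilies, of which 4 were kept. The array of cyp-13A1 to cyp-13A8 (chromosome II, 9779182 to 9807532) kept 2 of 8, cyp-13A2 and cyp-13A5.

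Some neighbours within an array differed in level and in the library where they were highest, and others were alike. The cyp-25A1 and cyp-25A2 genes on chromosome III, with 698 bases between them, each had a mean of 12.5 FPKM. Both were highest in Control 2. In the largest array cyp-34A8 and cyp-34A9 lie on the same strand with 253 bases between them. The control libraries held 5.47, 9.87 and 3.37 FPKM of cyp-34A8 and the THz libraries 3.88, 6.31 and 5.35 FPKM, with the highest value in Control 2. The cyp-34A9 gene was instead highest in Control 3, as given below. Between cyp-35A5 and cyp-34A5 the same array holds cyp-35B1, under 0.5 FPKM throughout, and cyp-35B2 and cyp-35B3, at 0 in all 6 libraries. A count of 0 allows up to 3 reads, here 0.0910 to 0.105 FPKM per library, for counting error only.

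**Figure D2:**
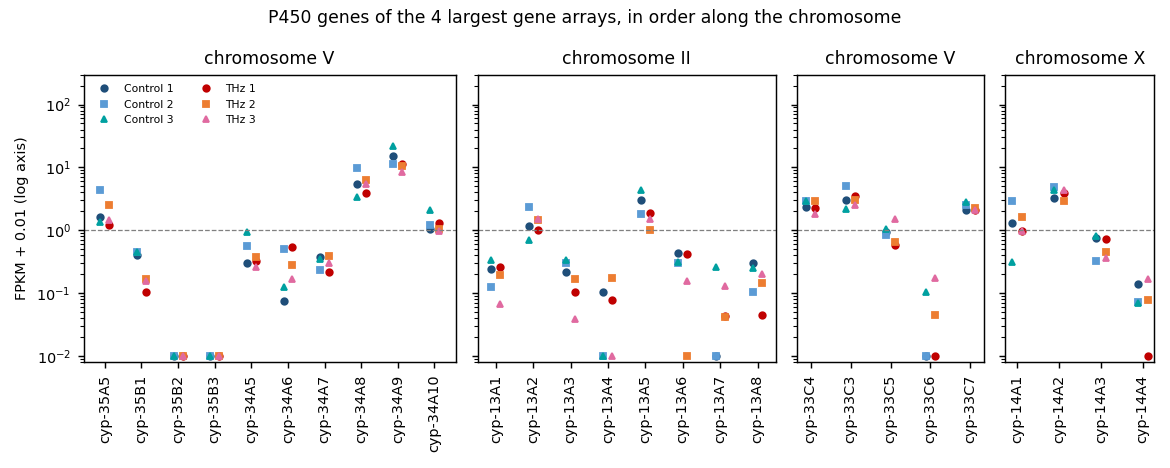
FPKM plus 0.01, on a log axis, of the genes of the 4 largest P450 arrays in their order along the chromosome, 1 point per library; the dashed line marks 1 FPKM. Genes well above the line, such as cyp-34A8 and cyp-34A9, sit beside genes near 0, such as cyp-34A7 and cyp-35B3.

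The design asks how expression differs between exposed and unexposed worms. No P450 gene passed the test: 0 of 41 had an adjusted p under 0.05 (limma on log2(FPKM + 1), Benjamini-Hochberg over all genes), where 0% of all genes did. The smallest adjusted p of a member was 0.827. At an unadjusted p under 0.05 there were 4 members, cyp-14A5 and cyp-31A3 higher and cyp-34A9 and cyp-13A5 lower after THz, 9.76% of those kept against 5.86% of all genes (4.88% against 1.86% higher, and 4.88% against 4.01% lower). The 3 THz libraries lay wholly above or below the 3 control libraries at 6 members, 14.6%, where the share over all genes was 13.8%. For 2 members, cyp-14A5 and cyp-31A3, all THz values were above, against 6.44% of all genes, and for 4, cyp-34A9, cyp-33C8, cyp-33C9 and cyp-42A1, all were below, against 7.33%. A fit that weights each library by its spread called 6 members, 14.6%, and 25.4% of all genes. With 41 members each of these shares rests on 2 to 6 genes, and they are no result about P450 genes as a group.

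More members were lower than higher after THz with all 6 libraries, 28 of 41, or 68.3% against 49.5% of all genes. Their median log2 difference was -0.09, against 0.00 for all genes kept. That lean moved with the libraries and settings used. Without Control 2, 18 members were lower and 23 higher, with a median of 0.04, while 48.4% of all genes were lower. Leaving out any other single library left 25 to 30 members lower. With the mean level of the moulting genes as a covariate 28 were lower, with a median of -0.14. After quantile normalization, which gives the libraries 1 common distribution, 21 were lower and 20 higher, while 43.6% of all genes were lower. A floor of 5 FPKM left 15 members, 7 of them lower, while 41.5% of all genes at that floor were lower.

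**Figure D3:**
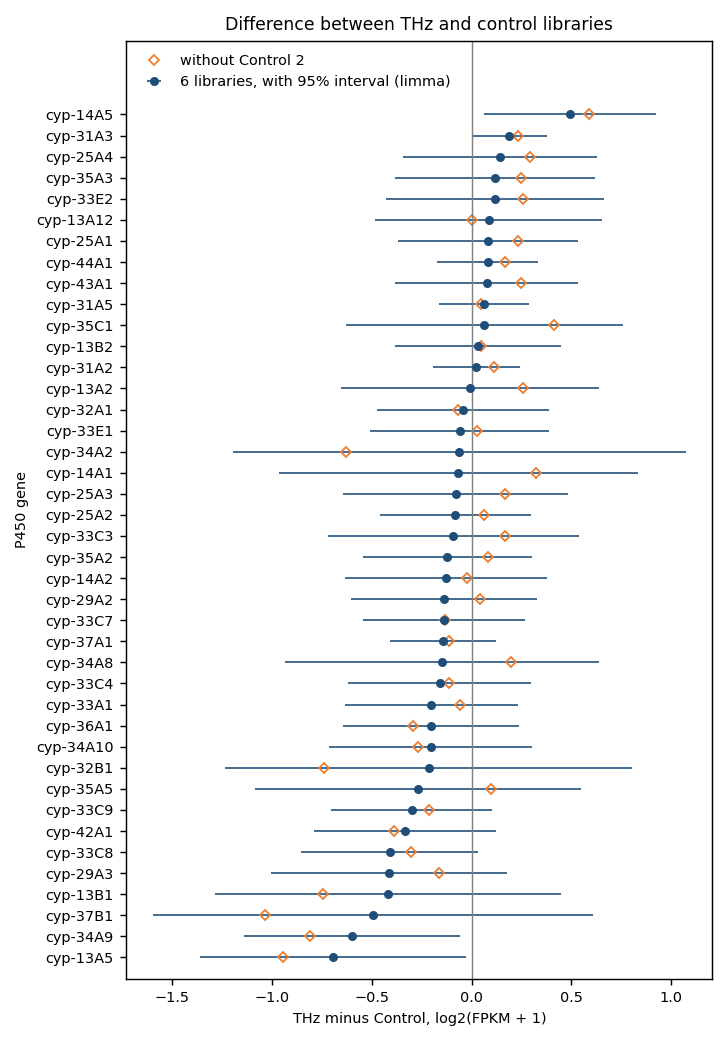
Difference between THz and control libraries on the log2(FPKM + 1) scale for each of the 41 kept P450 genes, with 95% intervals from limma (filled points, 6 libraries), and the same difference without Control 2 (open diamonds). The filled points run from -0.69 for cyp-13A5 to 0.49 for cyp-14A5, and 28 lie below 0; without Control 2, 18 do.

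The precision limits what can be said of single genes. The median standard error of a member's log2 difference was 0.20, and the 95% interval stayed within 1 on either side of 0 for 33 of the 41 members. For the other 8 a difference of 1 on the log2 scale in at least 1 direction lies inside the interval.

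Among members higher after THz, cyp-14A5 (chromosome V, 5421018 to 5423488) showed the largest log2 difference. The control libraries measured 4.88, 6.53 and 5.46 FPKM and the THz libraries 7.27, 10.1 and 7.68 FPKM. All 3 THz values lay above all 3 control values. The log2 difference was 0.49 ± 0.18 (SE), with an unadjusted p of 0.0302 and an adjusted p of 0.827 in limma, and ran from 0.36 to 0.59 when 1 library at a time was left out. Another kept gene of the subfamily, cyp-14A2 on chromosome X, measured 3.19, 4.92 and 4.41 FPKM in control and 3.93, 2.86 and 4.39 FPKM in THz libraries, and the groups overlapped.

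The cyp-31A genes come next. The enzymes encoded by cyp-31A2 and cyp-31A3 work with the reductase EMB-8 to make lipids of the eggshell, which the embryo needs for its permeability barrier and polarity. The cyp-31A3 gene (chromosome IV, 4761049 to 4762856) measured 46.5, 51.7 and 48.2 FPKM in control and 56.9, 57.9 and 52.7 FPKM in THz libraries. Its groups did not overlap, though Control 2 and THz 3 were close. The control mean was 48.8 ± 2.64 FPKM and the THz mean 55.8 ± 2.76 FPKM (SD, n = 3 each). On the log2 scale they differed by 0.19 ± 0.08 (SE; limma adjusted p = 0.827).

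The close relative cyp-31A2 (chromosome IV, 11403961 to 11406066) measured 61.0, 71.1 and 57.6 FPKM in control and 62.6, 65.6 and 63.98 FPKM in THz libraries. Control 2 and Control 3 enclosed the 3 THz values, and the log2 difference was 0.02 ± 0.09 (SE). The third copy, cyp-31A5, is short in the deposited table, at 929 bases, and its exons overlap Y62E10A.19 on the other strand. It ran from 72.6 to 84.8 FPKM in control and from 75.2 to 89.9 FPKM in THz libraries (log2 difference 0.06 ± 0.10, SE; limma adjusted p = 0.895). These genes are similar copies, so the split of reads among them is uncertain.

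Of 10 oocyte and early embryo markers, 9 had a higher mean after THz, with a median log2 difference of 0.15. In 5 of them all THz values lay above all control values, as in 6.44% of all genes, and none passed the test. They summed to 6078 to 6712 FPKM in the control and 6537 to 6814 FPKM in the THz libraries. The oocyte gene oma-2, for example, measured 602, 595 and 641 FPKM against 710, 687 and 712 FPKM. Whether the share of oocytes has a part in the cyp-31A values was not tested.

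Among members lower after THz, cyp-34A9 (chromosome V, 3968134 to 3970514) had the smallest p. It measured 15.4, 11.5 and 21.7 FPKM in control and 11.3, 10.6 and 8.31 FPKM in THz libraries. The groups did not overlap, but Control 2 lay only just above THz 1. The log2 difference was -0.60 ± 0.23 (SE), with an unadjusted p of 0.0339 and an adjusted p of 0.827. Both control libraries that stood apart moved it: without Control 2 it was -0.81 (adjusted p = 0.0654, where 1.92% of all genes and 0 members were called), and without Control 3 it was -0.38 (adjusted p = 0.464).

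The cyp-13A5 gene (chromosome II, 9798277 to 9800363) measured 3.04, 1.77 and 4.42 FPKM in control and 1.89, 0.988 and 1.501 FPKM in THz libraries. Control 2 fell among the THz values, so the groups overlapped. Its log2 difference of -0.69 ± 0.29 (SE) was the lowest of the members, with an adjusted p of 0.827 in limma, and it was -0.95 without Control 2 and -0.46 without Control 3. Its array neighbour cyp-13A2 showed no such order, at 1.16, 2.34 and 0.695 FPKM in control and 0.982, 1.42 and 1.52 FPKM in THz libraries.

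The cyp-33C subfamily has 11 members, of which 5 were kept, and all 5 had a log2 difference below 0, from -0.41 to -0.09, with all 6 libraries. Without Control 2 it was 4 of 5, as cyp-33C3 went from -0.09 to 0.17, and cyp-33C3 was also above 0 after quantile normalization (0.05) and without THz 3 (0.0020). Its cyp-33C8 gene (chromosome V, 3800782 to 3803531) measured 3.93, 4.62 and 3.13 FPKM in control and 2.44, 2.58 and 2.96 FPKM in THz libraries. The lone gene cyp-33C9 (chromosome V, 3091815 to 3094501) measured 4.44, 5.41 and 4.25 FPKM against 3.24, 3.88 and 3.75 FPKM. Neither gene's groups overlapped. Their log2 differences were -0.41 ± 0.19 and -0.30 ± 0.17 (SE), each with an adjusted p of 0.827 in limma, and -0.30 and -0.21 without Control 2. The 3 kept genes of the cyp-33C array on chromosome V, cyp-33C3, cyp-33C4 and cyp-33C7, lay at 1.83 to 5.07 FPKM, and their groups overlapped.

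The single gene of its family, cyp-42A1 (chromosome V, 18912038 to 18918109), was the other kept member with no overlap. It measured 2.20, 2.17 and 2.98 FPKM in control and 1.39, 1.81 and 2.01 FPKM in THz libraries, with Control 2 and THz 3 close to each other. The log2 difference was -0.33 ± 0.20 (SE; limma adjusted p = 0.827).

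**Figure D4:**
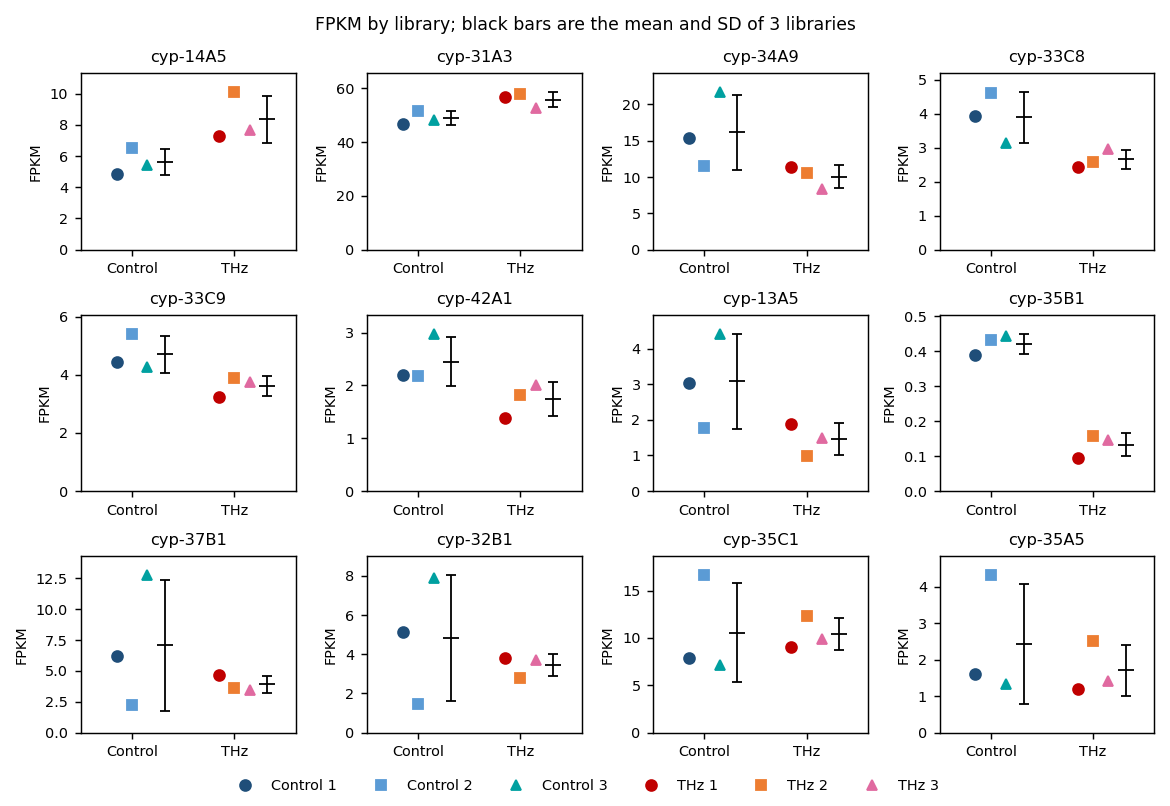
FPKM of 12 P450 genes in the 3 control and 3 THz libraries, 1 point per library, with the mean and SD of each group in black. The groups do not overlap for cyp-14A5, cyp-31A3, cyp-34A9, cyp-33C8, cyp-33C9, cyp-42A1 and cyp-35B1, while Control 2 is the lowest point of cyp-37B1 and cyp-32B1 and the highest of cyp-35C1 and cyp-35A5.

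Several P450 genes make signalling lipids. The enzymes of cyp-29A3 and cyp-33E2 oxidise eicosapentaenoic acid to eicosanoids, cyp-33E2 is expressed in the pharynx, and cyp-13A12 acts on polyunsaturated fatty acids in the behavioural response to reoxygenation. The cyp-29A3 gene (chromosome V, 59239 to 63509) measured 2.34, 4.17 and 1.80 FPKM in control and 1.75, 1.59 and 1.87 FPKM in THz libraries. The groups overlapped, and Control 2 was far above the rest. The log2 difference of -0.41 ± 0.25 (SE; limma adjusted p = 0.828) went to -0.16 without Control 2 and to -0.60 without Control 3.

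The cyp-33E2 gene measured 2.90, 3.81 and 2.35 FPKM in control and 3.06, 4.50 and 2.60 FPKM in THz libraries. For cyp-13A12 the values were 1.32, 1.52 and 2.88 FPKM against 2.38, 1.94 and 1.73 FPKM. The groups of both genes overlapped, with THz 2 the highest library for cyp-33E2 and Control 3 for cyp-13A12, and with log2 differences of 0.12 ± 0.23 and 0.09 ± 0.24 (SE; limma adjusted p = 0.923 and 0.949). Beside cyp-33E2, all 5 pharynx markers were lower after THz and summed to 91.3 to 108 FPKM in control and 73.8 to 95.2 FPKM in THz libraries. Their part in its value was not tested.

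The cyp-35 genes are the best known xenobiotic-inducible P450s of the worm, and cyp-35A genes also affect fat storage in the intestine. Of the 10 members of this family, cyp-35A2, cyp-35C1, cyp-35A5 and cyp-35A3 were kept. The cyp-35A2 gene measured 16.5, 26.0 and 16.7 FPKM in control and 16.6, 18.6 and 18.0 FPKM in THz libraries. The values of cyp-35C1 were 7.89, 16.6 and 7.17 FPKM against 9.08, 12.4 and 9.87 FPKM. Control 2 was the highest library for both genes, and the other control libraries lay near or below the THz values. The difference of cyp-35A2 was -0.12 ± 0.18 (SE; limma adjusted p = 0.895) with 6 libraries and 0.08 without Control 2. That of cyp-35C1 was 0.06 ± 0.30 (SE; limma adjusted p = 0.969), and it was 0.41 without Control 2 and -0.14 without Control 3.

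The cyp-35A5 gene again had its highest value in Control 2, at 1.61, 4.32 and 1.34 FPKM in control and 1.19, 2.499 and 1.42 FPKM in THz libraries. Its log2 difference was -0.27 ± 0.35 (SE; limma adjusted p = 0.884), and it was 0.10 without Control 2 and -0.49 without Control 3. The cyp-35A3 gene lay between 0.935 and 1.70 FPKM, with a log2 difference of 0.12 ± 0.21 (SE; limma adjusted p = 0.912). The inducible cyp-35A1 held a value above 0 in 1 library, Control 1, at 0.0959 FPKM.

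Below the level needed for the test, cyp-35B1, a downstream target of the insulin pathway factor DAF-16, had separate groups. It measured 0.389, 0.433 and 0.442 FPKM in control and 0.0955, 0.156 and 0.146 FPKM in THz libraries. Those values correspond to 13, 15 and 16 recovered reads against 3, 5 and 5. With no floor on the level its unadjusted p was 0.00579, and the adjusted p over 20845 genes was 0.829. The cyp-13A3 gene, at 7, 10 and 12 reads against 3, 5 and 1, was the other low member whose THz libraries all lay below the controls. Together they are 2 of the 31 unkept members with a value above 0, where 4.35% of all unkept genes with a value lay that way. No unkept member lay wholly above, as 3.03% of those genes did.

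The cyp-36A1 gene acts downstream of the hypoxia factor HIF-1 and its regulator EGL-9 in behaviour. It measured 6.46, 5.18 and 6.42 FPKM in control and 4.02, 5.85 and 5.50 FPKM in THz libraries, and the groups overlapped (log2 difference -0.20 ± 0.19, SE; limma adjusted p = 0.845). THz 1 was the lowest library, and without it the difference was -0.07. After quantile normalization it was -0.06. Of 7 neuron markers 5 had a lower mean after THz, with a median log2 difference of -0.31, and egl-21, ric-4 and unc-64 had all THz values below all control values, as 7.33% of all genes did. The egl-21 gene, for a peptide-processing enzyme, measured 40.4, 39.4 and 39.7 FPKM in control and 31.6, 31.6 and 32.9 FPKM in THz libraries (unadjusted p = 0.00440, limma adjusted p = 0.720). The 7 markers summed to 343 to 366.5 FPKM in control and 328 to 344 FPKM in THz libraries, of which the synaptic gene snb-1 gave 246 to 255 FPKM. Their part in the cyp-36A1 value was not tested.

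The cyp-44A1 gene, whose protein resembles mitochondrial P450s, measured 23.7, 28.9 and 24.5 FPKM against 28.7, 26.9 and 25.9 FPKM (log2 difference 0.08 ± 0.11, SE; limma adjusted p = 0.885). Its exons overlap npp-24 on the same strand, so reads of the shared stretch cannot be assigned. The last gene named by its p, cyp-25A4, ran from 1.29 to 2.26 FPKM in control and from 1.72 to 2.25 FPKM in THz libraries. Its log2 difference was 0.14 ± 0.21 (SE; limma adjusted p = 0.893).

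Many P450 genes differed in level between Control 2 and Control 3. Control 2 was the highest of the 6 libraries at 23 of the 41 kept members, or 56.1%, while it was highest at 29.3% of all genes kept. Control 3 was highest at 10 members. Control 2 exceeded Control 3 at 30 members, against 45.6% of all genes. The median difference of Control 2 minus Control 3 was 0.22 on the log2 scale for members and -0.05 for all genes kept.

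Members went opposite ways between these control libraries. At 13 members Control 2 was above Control 3 by more than 0.5 on the log2 scale, and at 7 it was below by more than 0.5. Of all genes kept, 31.8% were over 0.5 apart, compared with 48.8% of members. Members had a lower median level, 4.13 against 15.1 FPKM, and these shares were not matched by level. The first set included cyp-14A1, cyp-34A8, cyp-35A5, cyp-35C1, cyp-13A2, cyp-33C3 and cyp-29A3. The second was cyp-37B1, cyp-34A2, cyp-32B1, cyp-13B1, cyp-13A5, cyp-34A9 and cyp-13A12.

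On the log2(FPKM + 1) scale, the widest span between Control 2 and Control 3 was that of cyp-37B1 (chromosome V, 16278191 to 16280612), at 6.24, 2.24 and 12.8 FPKM in control and 4.68, 3.601 and 3.43 FPKM in THz libraries. The cyp-32B1 gene (chromosome V, 2198059 to 2201415) had the same order of controls, at 5.12, 1.47 and 7.89 FPKM, with 3.83, 2.79 and 3.70 FPKM in THz libraries. For cyp-34A2 the control values were 2.05, 0.204 and 4.02 FPKM. In these 3 genes every THz value lay between Control 2 and Control 3, the order that the summed moulting genes also followed. With the moulting score as a covariate, the log2 difference of cyp-37B1 went from -0.49 to -0.34 and that of cyp-32B1 from -0.21 to -0.07. Both genes were named after their values were seen, for an order of controls that the moulting score shares. Their shift toward 0 was therefore largely set in advance, and no conclusion is drawn from it. Without Control 2 the differences of cyp-37B1 and cyp-32B1 were -1.04 and -0.74, with adjusted p values of 0.0980 and 0.143 in limma. Without Control 3 both lay above 0, at 0.0096 and 0.18. The cyp-34A2 difference likewise went from -0.06 to -0.63 without Control 2 and to 0.40 without Control 3. Over the 41 kept members, the median log2 difference went from -0.09 to -0.14 with the moulting covariate. Whether moulting has a part in the values of these genes was not tested.

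In the opposite order, cyp-14A1 measured 1.299, 2.88 and 0.300 FPKM in control and 0.968, 1.63 and 0.952 FPKM in THz libraries. It was kept because exactly 3 libraries reached 1 FPKM, as was cyp-13B1, at 1.82, 0.833 and 3.69 against 0.761, 1.99 and 0.931 FPKM. Each passed through libraries of both groups. The log2 difference of cyp-14A1 was -0.07 with 6 libraries, 0.32 without Control 2 and -0.47 without Control 3. That of cyp-13B1 was -0.42, -0.75 and -0.07 in the same order. For cyp-34A8, also highest in Control 2, it was -0.15, 0.20 and -0.46. Just outside the threshold stood cyp-33C5, with 2 libraries at 1 FPKM or more and a range of 0.564 to 1.48 FPKM, and cyp-33E3, with 1 such library and a range of 0.0640 to 1.07 FPKM.

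**Figure D5:**
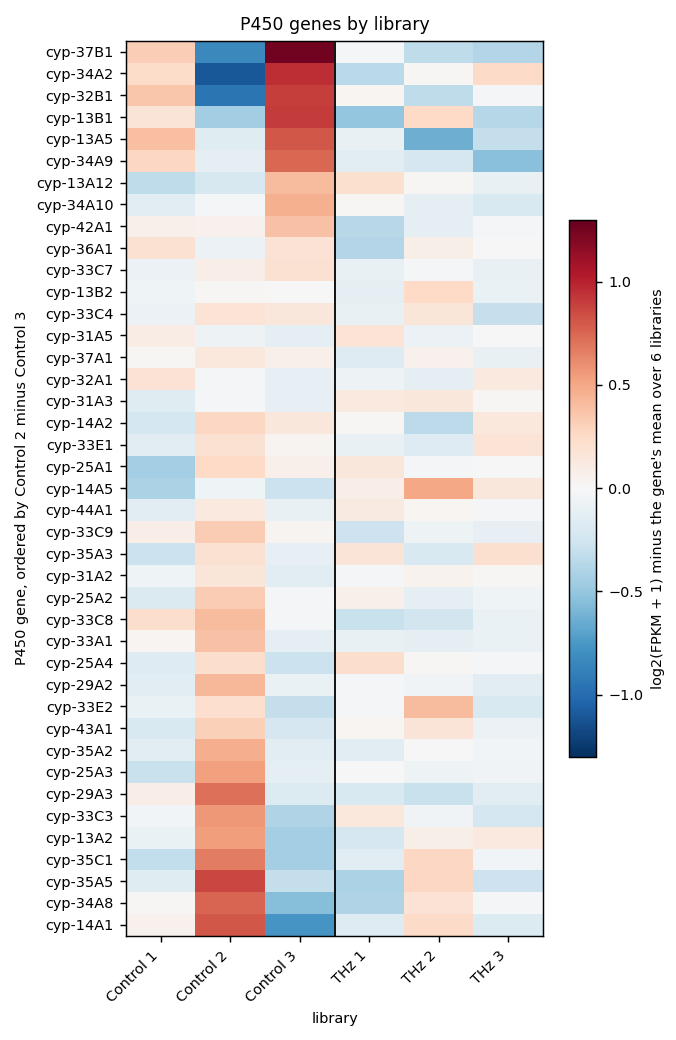
log2(FPKM + 1) of each of the 41 kept P450 genes in each library after subtracting the gene's mean over the 6 libraries, with genes ordered by Control 2 minus Control 3. Red is above and blue below the gene's mean; Control 2 and Control 3 hold the strongest colours at both ends, and the THz columns are paler.

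The THz libraries were more alike than the controls at P450 genes too. The SD of log2(FPKM + 1) over the 3 libraries was larger in control than in THz at 33 of 41 members, or 80.5%, near the 79.1% of all genes kept. The median SD of members was 0.27 in control and 0.17 in THz libraries. Over all genes kept it was 0.21 and 0.11.

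The remaining members are given by their range. The other kept genes, cyp-13B2, cyp-25A1 to cyp-25A3, cyp-29A2, cyp-32A1, cyp-33A1, cyp-33E1, cyp-34A10, cyp-37A1 and cyp-43A1, had overlapping groups and adjusted p values from 0.828 to 0.975 in limma. Of the 33 unkept members, 23 stayed under 0.5 FPKM in every library, among them most of the cyp-13A array and the cyp-33D genes. The thiabendazole-metabolising cyp-35D1 lay between 0.303 and 0.864 FPKM, with 9 to 28 recovered reads, and its groups overlapped.

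Genes that work with P450s did not pass the test either. All 4 genes listed as P450 partners, emb-8, cytb-5.1, cytb-5.2 and vem-1, had a lower mean after THz. Their median log2 difference was -0.09, and 3 or 4 of them were lower when 1 library at a time was left out. The reductase gene emb-8, which serves all microsomal P450s, measured 82.6, 105 and 89.2 FPKM in control and 85.2, 83.5 and 84.7 FPKM in THz libraries (log2 difference -0.12 ± 0.10, SE; limma adjusted p = 0.828). Its highest value was again in Control 2, its groups overlapped, and without Control 2 the difference was -0.02. The cytochrome b5 gene cytb-5.1, whose product can pass electrons to P450s, measured 124, 94.5 and 121 FPKM against 103, 96.7 and 100.2 FPKM.

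The flavin monooxygenases, another family that oxidises foreign compounds, had 5 kept genes, 4 of them lower, with a median log2 difference of -0.24. Among them fmo-1 measured 7.53, 10.02 and 7.06 FPKM in control and 6.80, 4.56 and 5.35 FPKM in THz libraries, with no overlap (log2 difference -0.49 ± 0.20, SE; limma adjusted p = 0.827; -0.35 without Control 2). Of 6 genes that make or hydrolyse the fatty acids and epoxides around the eicosanoid P450s, 4 were lower, with a median of -0.04, but 1 was lower without Control 3 (median 0.15). Of 9 dafachronic acid pathway genes 5 were kept, 3 of them lower, with a median of -0.01. After quantile normalization 2 of the 6 eicosanoid genes and 2 of the 5 kept dafachronic acid genes were lower. Of 12 regulators of xenobiotic and hypoxia responses 10 were kept, 9 of them lower, with a median of -0.08. Without Control 2 it was 7, and without Control 3 it was 6. The prolyl hydroxylase gene egl-9 measured 16.8, 17.3 and 22.8 FPKM in control and 14.3, 16.7 and 15.1 FPKM in THz libraries, and the groups just did not overlap. The detoxification factor skn-1 was, with all 6 libraries, the 1 regulator with a higher mean after THz, at 138, 127 and 159 FPKM against 155, 165 and 164 FPKM. None of these genes passed the test with all 6 libraries. The fmo-2 gene, at 0.425 FPKM in Control 2 and 10.3 FPKM in Control 3, did so without Control 2. Its log2 difference was then -1.34 (limma adjusted p = 0.0424), where 1.92% of all genes were called. Without Control 3 it was 0.16.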

How the data were processed

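Per the labels' protocols, TRIzol was used for extraction and TruSeq RNA v2 for the libraries. STAR, HTSeq 0.5.4, DESeq 1.10.1 and build WBcel235 are named in the submitters' processing notes, with no role or order. The authors deposited 1 FPKM value per gene and library. Positions and lengths are theirs; strand, biotype and exon overlaps come from the Ensembl annotation of the same build, in which all 74 members were found by gene ID. Whether counting used strand is not given in the sources used here. Reads in exons that overlap a gene on the other strand are therefore of uncertain origin. Besides cyp-31A5, the kept members with such an overlap with a protein-coding gene are cyp-36A1, cyp-37A1, cyp-37B1 and cyp-43A1.

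Reads were recovered as FPKM times length divided by 1 step per library. Within 0.05 reads, 88.7% of all values above 0 and 97.2% of member values were whole.

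The 12174 genes reaching 1 FPKM in 3 or more libraries entered a limma fit (version 3.58.1, R 4.3.3) of log2(FPKM + 1) on treatment, with trend. Tests were two-sided, adjusted over all genes kept by Benjamini-Hochberg, with a threshold of 0.05. The pseudocount of 1 understates changes of low genes. With 3 libraries a group, the smallest p of an exact permutation test is 0.1. The fit was checked on simulated data drawn with the same spread in every library, so the check does not cover the wider spread of the control libraries.

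The members, marker lists and pathway lists were chosen with earlier results of these data known. Fit values are given for the 6 members in each direction with the smallest p and for kept members with a documented role. Some others were named after their values were seen: cyp-37B1, cyp-32B1, cyp-34A2, cyp-14A1, cyp-13B1, cyp-34A8, cyp-35C1, cyp-13A2, cyp-13A3, cyp-14A2, cyp-33C3, fmo-2, oma-2, ssp-9, egl-21, ric-4, unc-64 and snb-1. Alternatives were other pseudocounts, filters and scalings, limma without trend, robust or with library weights, a replicate block, a moulting covariate, voom on recovered reads, and leaving out each library. Figures were drawn with matplotlib 3.10.9.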

Additional observations from a re-analysis of the deposited data

How the results depend on the processing

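No P450 gene was called in any fit but the one with library weights. There 3092 genes were called over all genes, 25.4%, and 6 P450 genes, 14.6%: cyp-14A5, cyp-31A3 and cyp-25A1 higher, and cyp-34A9, cyp-13A5 and cyp-37B1 lower after THz. The moulting covariate gave 14 genes called over all genes. Leaving out 1 library at a time gave 0 to 234 genes called (234 without Control 2) and 0 P450 genes in each case. The median log2 difference of P450 genes was -0.0045 after quantile normalization, against 0.027 for all genes. With a floor of 5 FPKM, which left 15 P450 genes, the P450 median was 0.024, against 0.032 for all genes. Over the fits that left out 1 library the P450 median was -0.16 to 0.044, the highest without Control 2. Of the named genes' values under an alternative, 300 kept direction and side of the threshold and 10 turned sign. Another 4 kept direction and passed the threshold, all with library weights. With quantile normalization cyp-31A2 was at -0.014, and with library weights cyp-31A5 was at -0.049 and cyp-35A2 at 0.070. Leaving out 1 library gave ranges of -0.0078 to 0.13 for cyp-31A5 (lowest without THz 1), -0.057 to 0.32 for cyp-13A12 (lowest without Control 1) and -0.039 to 0.11 for cyp-31A2 (lowest without Control 3). For cyp-33E2 the range was -0.057 to 0.26, below 0 without THz 2 and, at -0.0055, without Control 3. For cyp-35A2 it was -0.23 to 0.085 and for cyp-35A5 -0.49 to 0.10, above 0 without Control 2 in both. The cause of these shifts was not tested. Same-numbered libraries did not deviate together (r = -0.01, -0.14 and 0.03), and the fit with the replicate block called 0 genes. Genes of few reads, such as cyp-35B1, are limited by counting error.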
